A study of Mus musculus with 6 samples.

Results

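The MSX and DLX genes encode homeodomain transcription factors of the NK-like class. The 8 genes described here, Msx1, Msx2 and Dlx1 to Dlx6, were taken by symbol from a table of 53700 gene rows. They were chosen because Msx1 and Dlx3 were already known to be far lower in the tumours of the APC-KI mice of this series. The APC-KI against APC-WT values of the members are therefore given as a description, with no test. Of the 8 members, 4 (Msx1, Msx2, Dlx3 and Dlx4) had enough counts to pass the filter on low counts and 4 (Dlx1, Dlx2, Dlx5 and Dlx6) did not.

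RNA was sequenced from bulk colon tumours of mice in 2 groups of 3. The APC-KI tumours came from mice in which doxycycline represses endogenous Tcf7l2 throughout the body, and these mice were 6 weeks into doxycycline feeding and recovered from cachexia, the wasting syndrome of cancer. The APC-WT tumours came from mice in which doxycycline does not repress Tcf7l2, and these mice were 10 days into feeding and cachectic. Both groups were given 100 mg/kg doxycycline in food pellets. Genotype, time on doxycycline and cachexia state thus cannot be told apart. The strain, age, sex and number of tumours per mouse are not given in the labels.

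Homeodomain proteins bind short AT-rich DNA sites through the third helix of a domain of 60 residues. MSX proteins mostly act as repressors and keep cells of the limb bud, tooth germ and neural crest from differentiating, and their genes are widely used as readouts of BMP and Wnt signalling in the embryo. DLX proteins mostly act as activators, and their genes lie in 3 pairs, Dlx1-Dlx2, Dlx3-Dlx4 and Dlx5-Dlx6, that are transcribed towards each other. Dlx3 and Dlx4 are known from skin, hair follicle, tooth and placenta, and Dlx1, Dlx2, Dlx5 and Dlx6 from forebrain interneurons, jaw and bone.

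The homeobox is the stretch that defines the family, so it is printed for Msx2, Dlx3 and Dlx4 and for Msx3, the mouse MSX gene outside the members. Each run is the 180 coding bases from the longest protein-coding transcript in GENCODE M21, written 5′ to 3′, and capitals mark 6 codons of the third helix.
Msx2: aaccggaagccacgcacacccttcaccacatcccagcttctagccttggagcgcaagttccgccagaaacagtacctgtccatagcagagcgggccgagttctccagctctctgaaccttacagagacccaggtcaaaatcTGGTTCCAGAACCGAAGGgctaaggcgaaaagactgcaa
Msx3: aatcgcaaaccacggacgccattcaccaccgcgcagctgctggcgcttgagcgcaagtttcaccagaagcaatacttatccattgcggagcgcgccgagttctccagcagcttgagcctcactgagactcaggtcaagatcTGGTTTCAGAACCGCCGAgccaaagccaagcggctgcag
Dlx3: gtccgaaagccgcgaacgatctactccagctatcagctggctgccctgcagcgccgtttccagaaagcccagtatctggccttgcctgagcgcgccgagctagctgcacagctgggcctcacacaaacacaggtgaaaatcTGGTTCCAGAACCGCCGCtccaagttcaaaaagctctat
Dlx4: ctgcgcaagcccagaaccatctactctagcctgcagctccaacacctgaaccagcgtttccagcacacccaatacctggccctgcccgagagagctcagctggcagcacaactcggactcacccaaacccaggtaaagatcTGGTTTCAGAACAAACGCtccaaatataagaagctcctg
Over these 180 bases Msx2 was identical to Msx3 at 76.1% and Dlx3 to Dlx4 at 71.7% of positions. Over the whole transcripts the longest run of identical bases was 15 between Msx2 and Msx3 and 11 between Dlx3 and Dlx4. Longer runs were shared by Msx2 with Dlx6, at 44 bases, and with Dlx2, at 26 bases. The read length and the treatment of reads that match several genes are not given in the sources used here.

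Promoter windows of 300 bases, from 250 bases before to 50 after the transcript start, were held for 4 members in the RefSeq table (GRCm38.p6). Those of Msx1 and Msx2 are printed because both genes were low in the same libraries, in the direction of transcription, with motif matches in capitals.
Msx1, chr5:37824536-37824835, minus strand: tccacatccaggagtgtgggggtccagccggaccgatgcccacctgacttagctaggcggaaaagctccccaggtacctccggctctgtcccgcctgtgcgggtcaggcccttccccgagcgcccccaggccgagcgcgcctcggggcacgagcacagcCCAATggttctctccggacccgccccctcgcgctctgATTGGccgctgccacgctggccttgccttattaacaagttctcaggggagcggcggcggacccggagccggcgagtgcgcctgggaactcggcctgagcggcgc
Msx2, chr13:53472731-53473030, minus strand: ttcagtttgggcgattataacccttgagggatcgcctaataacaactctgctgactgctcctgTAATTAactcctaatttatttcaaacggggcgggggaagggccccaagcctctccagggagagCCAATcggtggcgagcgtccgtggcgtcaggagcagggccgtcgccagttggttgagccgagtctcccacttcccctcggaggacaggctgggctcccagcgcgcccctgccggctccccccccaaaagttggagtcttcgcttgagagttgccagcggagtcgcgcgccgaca
Both strands were searched for a TCF/LEF motif, read as CTTTGAT with its variant CTTTGAA and as CTTTGTT with its variant CTTTGTA. A homeodomain motif, TAATTA with its variant TAATTG, and the CCAAT box, CCAAT, were also searched, and no match overlapped another in these windows. The TCF/LEF letters were in neither window, nor in those of Dlx1 and Dlx2, and 16.9% of 32851 promoter windows held them. The homeodomain letters TAATTA stood in the Msx2 window, beginning 187 bases before the start, and 12.4% of all windows held this motif. The CCAAT letters stood in the Msx1 window at 91 bases before the start on the coding strand and at 54 on the other, and in the Msx2 window at 124, against 37.4% of all windows. These matches describe letters in the windows and show no binding.

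Library totals ran between 54895823 and 56825956 counts in APC-KI and between 51777342 and 63921108 in APC-WT, so that a single count was worth between 0.0150 and 0.0192 CPM, the unit of counts scaled to library size (TMM). Tcf7l2, repressed by design, held 4.48, 6.90 and 5.34 CPM in APC-KI replicates 1 to 3 and 44.1, 43.8 and 35.6 CPM in APC-WT replicates 1 to 3 (log2 change −2.89 ± 0.19 SE, edgeR adjusted p = 0.00124). Of 19127 genes tested, 20.1% passed the threshold of an adjusted p under 0.05, 12.5% as higher and 7.63% as lower in APC-KI. The 3847 calls fell to 1273 without APC-KI replicate 1, 1378 without APC-KI replicate 2, 2458 without APC-WT replicate 1 and 1159 without APC-WT replicate 2. Y-linked genes were counted 19164 times in APC-WT replicate 1, 16055 times in APC-WT replicate 2 and 0 times in the other 4 libraries. All Y-linked reads were thus in APC-WT, so sex, as far as these reads show it, was partly tied to group. Values of APC-WT replicate 3 are therefore also set against the APC-KI libraries below. Of 12 colon epithelial markers 7 were higher and 0 lower in APC-KI (adjusted p under 0.05), and their summed level was 12381 to 15093 CPM in APC-KI and 9306 to 10479 CPM in APC-WT.

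Msx1 was the MSX gene with the most counts. It held 0.941, 0.861 and 1.30 CPM in APC-KI replicates 1 to 3, against 21.2, 14.6 and 21.5 CPM in APC-WT replicates 1 to 3. These values rest on 49, 45 and 73 counts in the APC-KI libraries and on 1412, 828 and 1152 counts in the APC-WT libraries. The 3 APC-KI values lay together and far below every APC-WT value. The means were 1.03 ± 0.233 CPM in APC-KI and 19.1 ± 3.93 CPM in APC-WT (SD, n = 3 each), which puts the APC-KI mean at 5.41% of the APC-WT mean. The fitted log2 change was −4.20 ± 0.26 (SE), or 18.4-fold lower, the 37th lowest of all genes tested. In these bulk samples, fewer cells that express a gene and less RNA per cell cannot be told apart.

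Msx2, which acts beside Msx1 in skull, tooth and hair development, was present at much lower counts. It had 4, 2 and 3 counts in the APC-KI libraries, against 46, 16 and 38 in the APC-WT libraries. In CPM these were 0.0768, 0.0383 and 0.0534 in APC-KI and 0.690, 0.281 and 0.711 in APC-WT. The groups did not overlap, and APC-WT replicate 2 was the lowest of its group for Msx2 as it was for Msx1. The fitted log2 change was −3.27 ± 0.53 (SE), and the ratio of summed counts, APC-KI over APC-WT, was 0.0992 with an exact 95% interval of 0.0441 to 0.196 for counting error. Msx2 made up 7.55%, 4.26% and 3.95% of the counts of Msx1 and Msx2 together in APC-KI, against 3.16%, 1.90% and 3.19% in APC-WT. All 3 APC-KI shares lay above all 3 APC-WT shares, but they rest on 2 to 4 Msx2 counts per library, with exact 95% intervals of 2.09% to 18.2%, 0.520% to 14.5% and 0.822% to 11.1% in APC-KI and 2.32% to 4.19%, 1.09% to 3.06% and 2.27% to 4.36% in APC-WT. Each APC-KI interval overlapped each APC-WT interval.

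Dlx3, a factor of terminal differentiation in the epidermis and of the placenta, was the DLX gene with the most counts. It held 2.09, 0.822 and 2.81 CPM in APC-KI replicates 1 to 3 (109, 43 and 158 counts), against 21.8, 16.3 and 9.26 CPM in APC-WT replicates 1 to 3 (from 1457, 925 and 495 counts). The groups did not overlap, but Dlx3 spread more widely within each than Msx1 did. APC-KI replicate 2 and APC-WT replicate 3 were the low libraries of their groups. The means were 1.91 ± 1.01 CPM in APC-KI and 15.8 ± 6.31 CPM in APC-WT (SD, n = 3 each), with a fitted log2 change of −3.05 ± 0.52 (SE). Among the 4 libraries that lack Y-linked reads, where APC-WT replicate 3 is the sole APC-WT library, the log2 change was −2.28, while that of Msx1 was −4.38.

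Dlx4, the partner of Dlx3 in its gene pair, held 0.519, 0.191 and 0.836 CPM in APC-KI replicates 1 to 3 (27, 10 and 47 counts) and 2.25, 1.65 and 1.51 CPM in APC-WT replicates 1 to 3 (from 150, 94 and 81 counts). The groups did not overlap, and the order of the libraries within each group was the same as for Dlx3. The fitted log2 change was −1.80 ± 0.50 (SE), or 3.49-fold lower. Dlx4 made up 19.9%, 18.9% and 22.9% of the counts of the pair in APC-KI, against 9.33%, 9.22% and 14.1% in APC-WT. The exact 95% intervals were 13.5% to 27.6%, 9.44% to 32.0% and 17.4% to 29.3% in APC-KI, and 7.96% to 10.9%, 7.52% to 11.2% and 11.3% to 17.2% in APC-WT. The counting interval of APC-KI replicate 3 thus lay above all 3 APC-WT intervals, that of APC-KI replicate 1 overlapped APC-WT replicate 3, and that of APC-KI replicate 2 overlapped all 3.

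Dlx4os, an antisense transcript at the Dlx4 locus that was not among the members, had 8, 6 and 8 counts in APC-KI and 62, 48 and 24 counts in APC-WT. Dlx4os could thus pass the filter on low counts only through its APC-WT level. Its log2 change was −2.42 ± 0.39 (SE, edgeR adjusted p = 0.0110), and the adjusted p was 0.165 among libraries that lack Y-linked reads. The library kit marks the strand, but the strand setting of the counting is not given in the sources used here, so reads of Dlx4 and Dlx4os cannot be told apart with certainty. The antisense transcripts at the other pairs had 0 counts for Dlx1as and Dlx6os2 and 1 count for Dlx6os1 over the 6 libraries.

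The 4 remaining members were at the limit of detection. Dlx1, a factor of forebrain interneurons, had 4, 5 and 1 counts in APC-KI and 1, 0 and 0 in APC-WT, a ratio of summed counts of 11.0 with an exact 95% interval of 1.57 to 479. Dlx2 had 0, 2 and 2 counts in APC-KI and 0, 0 and 1 in APC-WT, with an interval of the ratio of 0.436 to 217. Dlx5, a factor of bone and jaw development, had 2, 6 and 2 counts in APC-KI and 1, 0 and 2 in APC-WT, with an interval of 0.946 to 20.8. Dlx6 had 0 counts in all APC-KI libraries and 1, 0 and 0 in APC-WT. A group with 0 counts allows a level of up to 0.0187 CPM in APC-KI, from 3 counts over the group. The intervals cover counting error only. The summed counts of Dlx1, Dlx2 and Dlx5 were higher in APC-KI, unlike those of Dlx3 and Dlx4. Dlx2, Dlx5 and Dlx6 overlapped between the groups, and Dlx1 had 1 count in both APC-KI replicate 3 and APC-WT replicate 1.

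**Figure D1:**
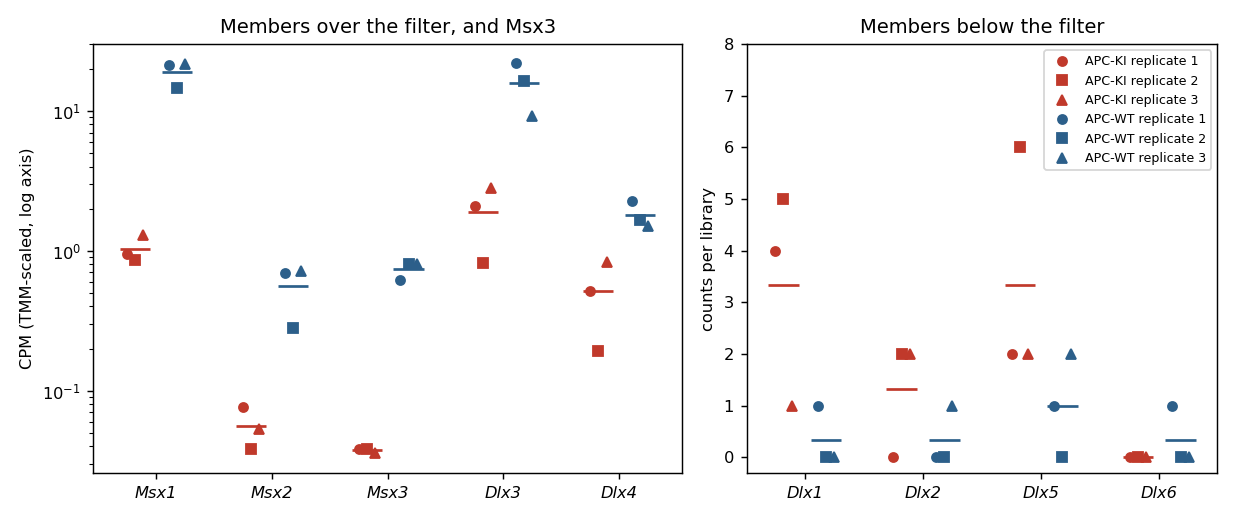
Level of each member in every library. The left panel gives CPM on a log axis for the 4 members that passed the filter and for Msx3, and the right panel gives counts for the other 4, with APC-KI in red, APC-WT in blue, bars at group means and a marker shape per replicate. In the left panel every APC-KI point lies below every APC-WT point of its gene, and in the right panel no library exceeds 6 counts.

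Levels were compared between genes per kilobase of exon, with lengths from M21. In APC-KI the order was Dlx3 at 0.732 ± 0.386, Msx1 at 0.334 ± 0.0753 and Dlx4 at 0.158 ± 0.0986 CPM per kilobase (SD, n = 3), and all other members were below 0.03. In APC-WT, Msx1 stood at 6.16 ± 1.27 and Dlx3 at 6.06 ± 2.42 CPM per kilobase, a difference within their spread. Dlx4 at 0.552 ± 0.119 and Msx2 at 0.171 ± 0.0738 CPM per kilobase came next, and the other 4 members were below 0.01. Among the counts of Msx1 and Dlx3 together, Dlx3 made up 69.0%, 48.9% and 68.4% in APC-KI and 50.8%, 52.8% and 30.1% in APC-WT, so that the share overlapped between the groups.

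Over all genes tested, 21.5% had all APC-KI values below all APC-WT values, and 1.26% had a log2 change of −2 or lower. All 4 members that passed the filter were of the first kind, and Msx1, Msx2 and Dlx3 were of the second kind. Nothing is read from these counts, since the members were chosen from this contrast and a member with low counts in APC-KI could pass the filter only through a high APC-WT level.

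**Figure D2:**
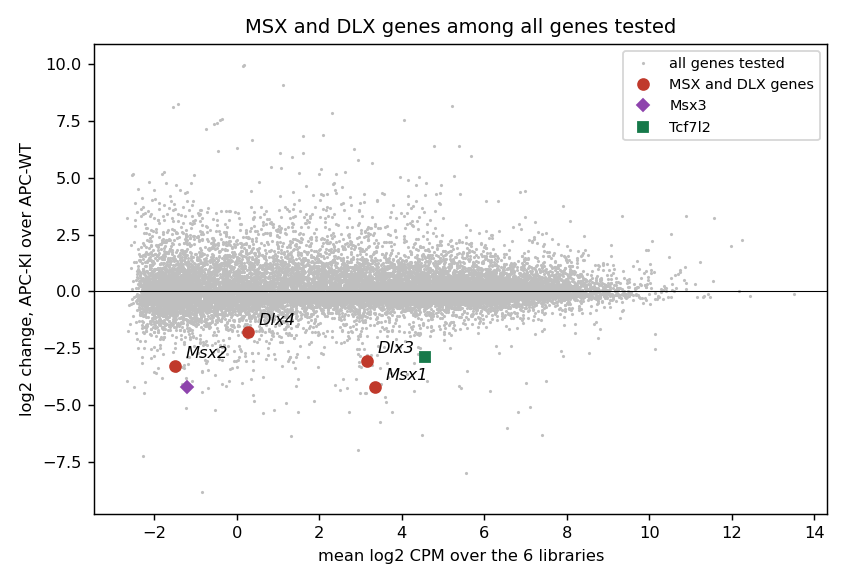
Log2 change of APC-KI over APC-WT against mean log2 CPM for the 19127 genes tested. The 4 members that passed the filter are red, Msx3 is purple and Tcf7l2 is green, and all 6 lie below 0, between −4.23 and −1.80.

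Among 40 other NK-like homeobox genes, which share descent with the MSX and DLX genes, 11 had 0 counts in every library and 8 were tested. Of these 2 were higher, 2 lower and 4 did not pass, with a median log2 change of 0.43 against −0.016 over all genes tested. The largest difference in the list was in Msx3, which in the mouse embryo is known from the dorsal neural tube. Msx3 had 2, 2 and 2 counts in APC-KI, against 41, 46 and 43 in APC-WT. That is 0.0384, 0.0383 and 0.0356 CPM in APC-KI and 0.615, 0.809 and 0.804 CPM in APC-WT. The SD was 0.111 CPM in APC-WT, while 2 counts per library are too few to show the spread of the APC-KI tumours. Its log2 change was −4.23 ± 0.35 (SE, edgeR adjusted p = 0.00290). The ratio of summed counts was 0.0509, with an exact 95% interval of 0.0183 to 0.114 for counting error alone. Like the low members, Msx3 could pass the filter on low counts only through its APC-WT level. Its fall is thus no independent evidence on the members.

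Nkx1-2, a factor of the embryonic tail bud, was the other gene that fell, to 0.183 ± 0.176 CPM in APC-KI against 0.940 ± 0.0297 CPM in APC-WT (log2 change −2.36, adjusted p = 0.0372). Nkx1-2 too could pass the filter only through its APC-WT level. The genes that rose were Hhex, a factor of endoderm and blood vessel development, with a log2 change of 0.71 (adjusted p = 0.0275), and Hlx, a factor of gut mesenchyme, with 1.11 (adjusted p = 0.0299). Nkx2-3, a mesenchymal factor of the gut, did not pass at 0.57, nor did Barx2 at 0.71, Nkx2-2 at 0.30 or Tlx2, a factor of enteric neurons, at −1.53. Msx3 was the gene of this list that passed under each alternative that tested it. The count of 4 fell to 1 without APC-WT replicate 2, without APC-KI replicate 2 and among libraries that lack Y-linked reads, and to 2 without APC-KI replicate 1, APC-KI replicate 3 or APC-WT replicate 1.

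Genes in the list of TCF/LEF factors and Wnt targets were mostly lower in APC-KI. Of 19 tested, 15 were lower, 1 was higher and 3 did not pass, a share of 84.2% called against 20.1% of all genes. The median log2 change was −1.24. The gene that was higher was the factor Tcf7l1 (log2 change 1.10, adjusted p = 0.0179), and the factor Lef1 did not pass at −0.78. The list and its direction were known from these samples and are no independent evidence. The lowest log2 changes in this list were −2.89 for Tcf7l2, −2.73 for Apcdd1 and −2.64 for Notum, beside −4.20 for Msx1, −3.27 for Msx2 and −3.05 for Dlx3, and the values of Dlx3 and Tcf7l2 differed by less than the SE of Dlx3. Lgr5, an R-spondin receptor of stem cells, had a log2 change of −1.02 ± 0.09 (SE, adjusted p = 0.00357), the factor Tcf7 −1.17 ± 0.12 (adjusted p = 0.00431) and the secreted inhibitor Wif1 −2.05 ± 0.22 (adjusted p = 0.00519). Axin2, the standard feedback gene of the pathway, stood at 235 ± 68.4 CPM in APC-KI and 603 ± 165 CPM in APC-WT (log2 change −1.36, adjusted p = 0.0204). Its libraries stood in the same order within each group as those of Dlx3 and Dlx4, with APC-KI replicate 2 and APC-WT replicate 3 lowest. Lef1, Sp5 and Apcdd1 were among the genes of the list with this order, while Lgr5 did not have it. The share of all genes tested with this order is not given here, so nothing is read from it. The count of 16 fell to 10 without APC-KI replicate 1 and to 4 among libraries that lack Y-linked reads.

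The BMP and SMAD list, the pathway upstream of MSX genes in many embryonic tissues, moved in both directions. Of 29 genes tested, 5 were higher, 6 were lower and 18 did not pass, a share of 37.9% called against 20.1% of all genes. Like the other gene lists, this list was chosen with earlier results of these data known, so its share is no independent evidence. The median log2 change was 0.14. The ligand Bmp2 rose (log2 change 0.54, adjusted p = 0.0413) and the ligand Bmp7 fell (−0.62, adjusted p = 0.0217), while Bmp4 at 0.62, Bmp5 at 0.42 and the receptors Bmpr1a at 0.09 and Bmpr2 at 0.08 did not pass. Genes of secreted BMP antagonists were also among those that rose. Chrdl1 stood at 5.77 ± 1.66 CPM in APC-KI and 0.652 ± 0.317 CPM in APC-WT (log2 change 3.15, adjusted p = 0.00857) and Grem1 at 330 ± 108 CPM in APC-KI and 67.6 ± 52.7 CPM in APC-WT (2.29, adjusted p = 0.0394). Chrd had a log2 change of 1.05 (adjusted p = 0.0146) and lost its call without APC-KI replicate 2 or APC-WT replicate 2. The antagonist Nog did not pass at −1.41.

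Direct BMP-SMAD response genes were among those that fell. Id3, an inhibitor of basic helix-loop-helix factors, stood at 75.5 ± 11.8 CPM in APC-KI and 147 ± 5.13 CPM in APC-WT (log2 change −0.96 ± 0.12 SE, adjusted p = 0.00601). Id1 and Id2 fell by 0.51 and 0.55 on the log2 scale. The inhibitory SMAD gene Smad7 had a log2 change of −0.57 (adjusted p = 0.0181) and lost its call without APC-WT replicate 2. Bambi did not pass at −0.77, and its groups overlapped. Smad5, which carries the BMP signal, fell by 0.39, while Smad6 at −0.73, Smad4 at 0.39 and Id4 at 0.88 did not pass. The count of 11 fell to 3 without APC-WT replicate 2 or APC-KI replicate 2, to 4 without APC-KI replicate 1, to 6 without APC-WT replicate 1 and to 1 among libraries that lack Y-linked reads. Summed fibroblast markers ran between 3120 and 4233 CPM in APC-KI and between 1438 and 2901 CPM in APC-WT, with 2 of 10 higher and 0 lower, and summed smooth muscle markers between 1084 and 1727 CPM in APC-KI and between 241 and 545 CPM in APC-WT, with 10 of 10 higher. The part of these cells in the antagonist levels was not tested.

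Of 11 tested partners and corepressors through which MSX and DLX proteins act, 1 rose, 1 fell and 9 did not pass, a share of 18.2% called against 20.1% of all genes. Tle4, a Groucho corepressor, rose to 75.8 ± 5.75 CPM in APC-KI against 35.2 ± 5.25 CPM in APC-WT (log2 change 1.11 ± 0.13 SE, adjusted p = 0.00532). Ezh2, a histone H3 methyltransferase, had a log2 change of −0.47 (adjusted p = 0.0474) and did not pass without APC-KI replicate 1 or 2 or any 1 of the APC-WT libraries. Tle3 and Tle1 did not pass at −0.67 and −0.31, and Maged1, which binds DLX and MSX proteins, had a log2 change of 0.00 ± 0.16 (SE). The list had 1 call without APC-KI replicate 1 or 2 or APC-WT replicate 1 or 2, and 1 among libraries that lack Y-linked reads.

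Of 10 tested genes that lie downstream of MSX or DLX factors in other tissues, 2 rose, 1 fell and 7 did not pass. That is a share of 30.0% called against 20.1% of all genes. Cdh6, a cadherin, stood at 1.49 ± 0.212 CPM in APC-KI and 0.378 ± 0.0892 CPM in APC-WT (log2 change 1.97, adjusted p = 0.00816). Hand2, which depends on Dlx5 and Dlx6 in the mouse jaw, had a log2 change of 2.16 (adjusted p = 0.0178) and lost its call without APC-KI replicate 1, APC-KI replicate 2 or APC-WT replicate 2. Ccnd1, cyclin D1, which Msx1 sustains in cultured cells and which is also a Wnt target, had a log2 change of −0.50 (adjusted p = 0.0326). Ccnd1 kept its call without APC-WT replicate 1 and lost it without any 1 of the other libraries. Gad1, an enzyme of GABA synthesis that DLX factors activate in forebrain interneurons, did not pass at −1.73 (adjusted p = 0.0545), and DESeq2 called it (adjusted p = 0.00655). The list had 1 call without APC-KI replicate 1, APC-KI replicate 2 or APC-WT replicate 2.

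**Figure D3:**
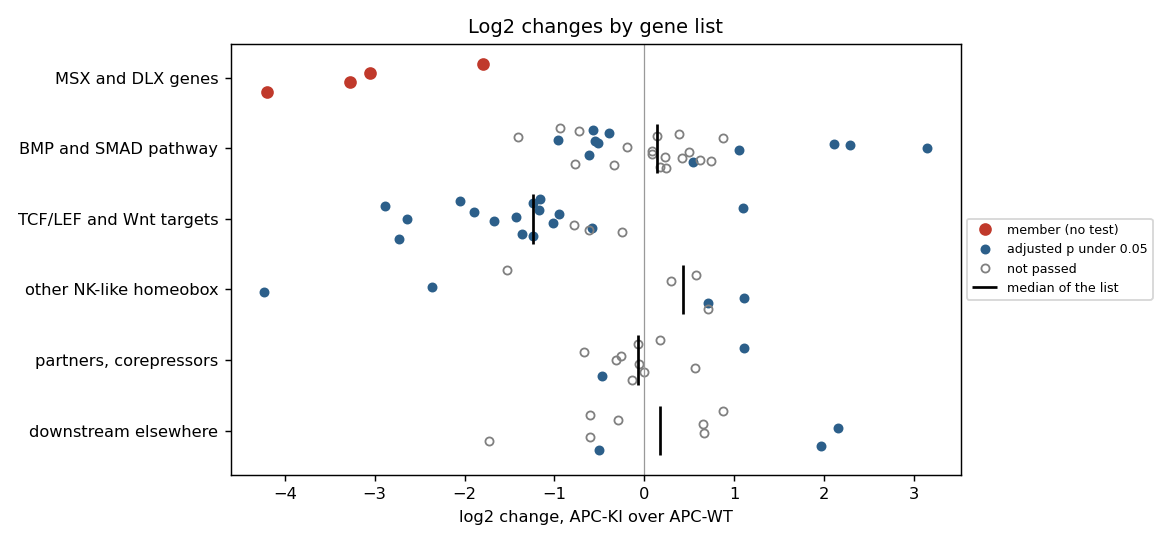
Log2 change of APC-KI over APC-WT for the members (red, no test) and for each gene of 5 lists, filled where the adjusted p was under 0.05 and open where it was not, with a bar at each list's median. The TCF/LEF and Wnt list lies mostly below 0 with a median of −1.24, and the other 4 lists have medians between −0.07 and 0.43.

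The genes beside the members were examined to see whether whole neighbourhoods were low. For each of 5 loci the 3 nearest protein-coding genes on each side were taken, 30 in all, of which 28 were tested. Of these 7 were higher and 0 lower, a share of 25.0% called against 20.1% of all genes, with a median log2 change of 0.16. With library totals in place of TMM factors 7 were higher and 4 lower, and without APC-WT replicate 3 7 were higher and 2 lower. In the full fit, at an unadjusted p under 0.05, edgeR also had 0 neighbours lower, and DESeq2 had 1 (0 after adjustment). Of the 7 increases in the full fit, 4 were at the Msx1 locus.

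Stk32b, a serine/threonine kinase gene that is the second neighbour of Msx1, went in the opposite direction to Msx1. It had 103, 83 and 127 counts in APC-KI and 2, 1 and 1 counts in APC-WT. That is 1.98, 1.59 and 2.26 CPM in APC-KI and 0.0300, 0.0176 and 0.0187 CPM in APC-WT, with no overlap. Stk32b thus had a log2 change of 6.30 ± 0.37 (SE, edgeR adjusted p = 0.00119), and the call held under every alternative tried. The ratio of summed counts was 86.3, with an exact 95% interval of 33.4 to 319 for counting error alone. Cytl1, which encodes a small secreted protein and lies between Stk32b and Msx1, stood at 0.423, 0.861 and 0.640 CPM in APC-KI and 0.135, 0.141 and 0.0374 CPM in APC-WT (log2 change 2.57, adjusted p = 0.0189). Evc2, a ciliary component of Hedgehog signalling, and Nsg1, a neuronal endosome protein, had log2 changes of 1.08 and 1.31 (adjusted p = 0.0178 and 0.0404). Evc2 and Cytl1 lost their calls without APC-KI replicate 2 and without APC-WT replicate 2, and of the leave-one-out fits Nsg1 passed only in that without APC-WT replicate 3. Stx18, the nearest gene on the other side of Msx1, did not pass at 0.14. Stk32b and Cytl1 could pass the filter on low counts only through their APC-KI levels.

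Beside the other loci the calls were single genes. Itga3, an integrin chain next to Dlx3, rose to a range of 250 to 308 CPM in APC-KI, against 144 to 180 CPM in APC-WT (log2 change 0.78, adjusted p = 0.00927). Tac1, the substance P precursor near Dlx5, had a log2 change of 2.48 (adjusted p = 0.00420) and Hrh2, the histamine H2 receptor near Msx2, one of 1.39 (adjusted p = 0.0457), which of the leave-one-out fits held only without APC-WT replicate 3. Without APC-KI replicate 2 or without APC-WT replicate 2, 3 neighbours passed, and among libraries that lack Y-linked reads 1 passed. Summed enteric neuron and glia markers ran between 32.2 and 44.2 CPM in APC-KI and between 23.3 and 41.0 CPM in APC-WT, with 4 of 9 tested higher, and their part in the Tac1 and Nsg1 levels was not tested.

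**Figure D4:**
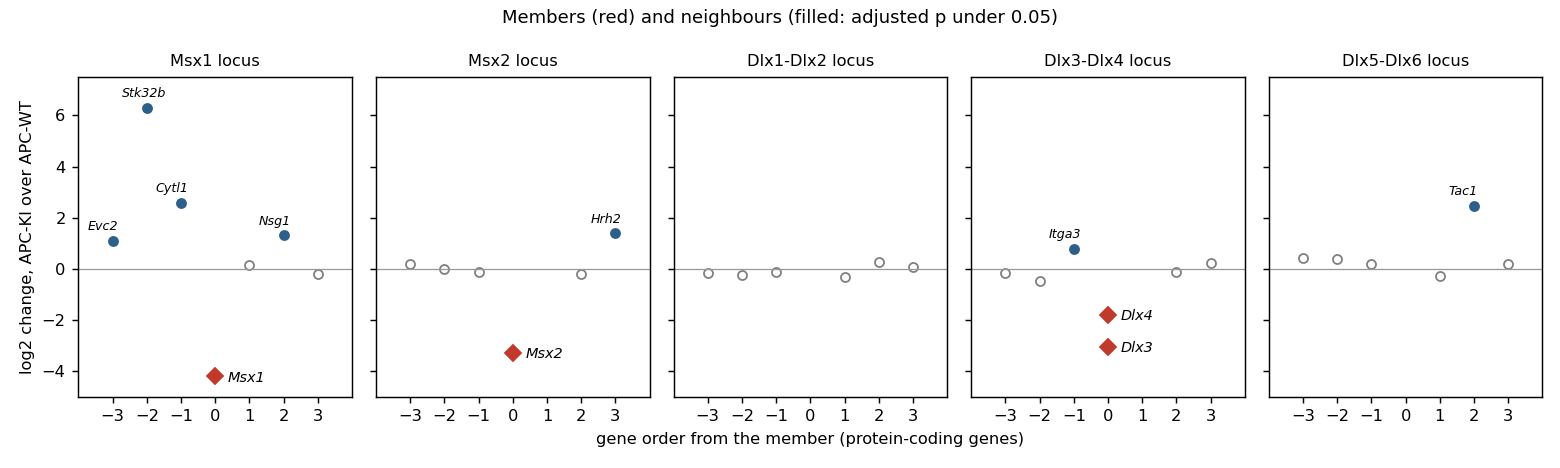
Log2 change of APC-KI over APC-WT for members (red diamonds at 0) and the 3 nearest protein-coding genes on each side, by gene order, at 5 loci; filled points had an adjusted p under 0.05. Msx1 lies at −4.20 and Stk32b, its second neighbour, at 6.30, and the tested neighbours of Dlx1-Dlx2 are all open points near 0.

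Profiles over the 6 libraries were compared by the root mean square difference of log2 CPM after centring each gene on its mean, over 13583 genes with a mean log2 CPM of at least 0. The gene most like Msx1 was Fgf3, a fibroblast growth factor of early development, at 0.25. Wfikkn2, a secreted binder of growth and differentiation factors, and Pnliprp1, a pancreatic lipase-related protein, followed at 0.44 each, then Aox4 at 0.56 and Slc6a13 at 0.57. Fgf3 averaged 0.516 CPM in APC-KI and 10.6 CPM in APC-WT. Among the homeobox genes, Msx3 was 0.50, Dlx3 0.79, Msx2 0.83 and Dlx4 1.22 from Msx1.

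The gene most like Dlx3 was Apcdd1, a membrane inhibitor of Wnt signalling, at 0.24. Apcdd1 averaged 97.3 CPM in APC-KI and 646 CPM in APC-WT. It was followed by Slc6a13, a GABA transporter, at 0.33, by Apoc4 and S100g at 0.34 each and by Ism1 at 0.37. Dlx4 was 0.64 and Msx1 0.79 from Dlx3, which placed Dlx4 37th in nearness to Dlx3. These likenesses are a description of 6 libraries that all 13583 genes share. Centring leaves the difference between the groups in each profile, and Msx1 and Dlx3 were chosen for that difference. A near profile is thus largely a fall of similar size, as in Fgf3 (log2 change −4.35) beside Msx1 and Slc6a13 (−3.28) beside Dlx3. No shared regulation is read from it.

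**Figure D5:**
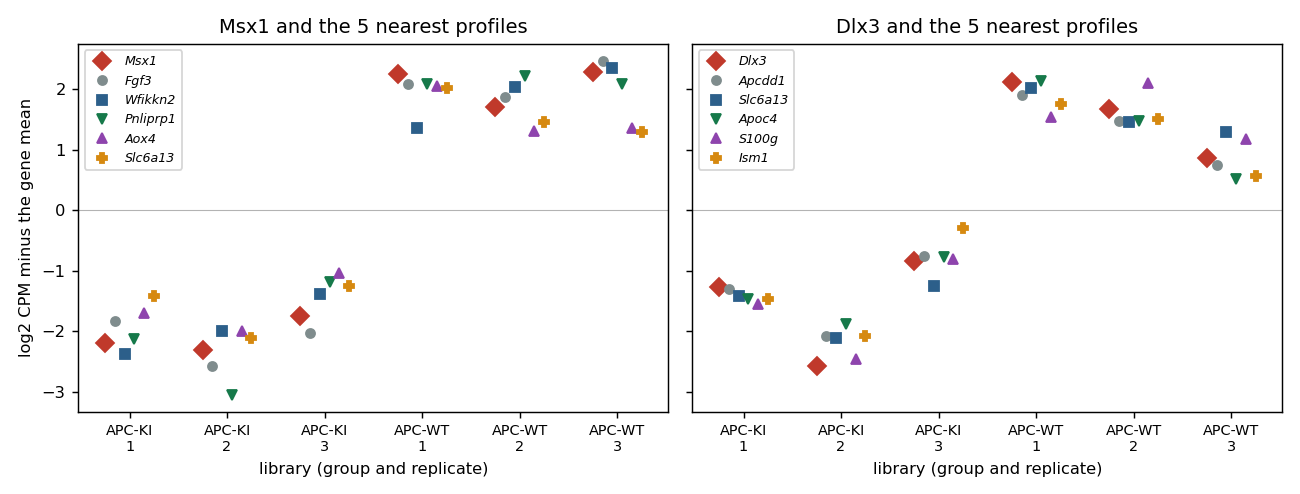
Log2 CPM of Msx1 (left) and Dlx3 (right) minus each gene's mean, with the 5 genes of nearest profile, by library. Dlx3 and Apcdd1 are lowest in APC-KI replicate 2 and, within APC-WT, in replicate 3, while Msx1 and Fgf3 are lowest within APC-WT in replicate 2.

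Because Dlx3 and Msx1 are also known from skin appendages, squamous and hair follicle markers were read in the same libraries. Their summed level was 62.7 to 149 CPM in APC-KI and 55.4 to 176 CPM in APC-WT, and the groups overlapped. Of 12 tested, 1 was lower and 0 were higher. Krt4, a keratin of stratified mucosa, fell by 2.77 on the log2 scale (adjusted p = 0.0127). Dsc3 at −1.57 (adjusted p = 0.0557), Dsg3 at −1.83 (adjusted p = 0.0671) and Sprr1a at 1.17 (adjusted p = 0.0899) did not pass. None of these genes overlapped between the groups, but neither did 44.5% of all genes tested, counting either direction, so nothing is read from it. The basal keratin genes Krt5 and Krt14 and the factor Trp63 had log2 changes of 0.11 ± 1.54, −0.35 ± 0.87 and −0.43 ± 1.07 (SE) that did not pass. Mast cell markers were lower in 9 of 9, with summed levels of 22.3 to 39.0 CPM in APC-KI and 163 to 911 CPM in APC-WT, endothelial markers were higher in 3 of 8 (283 to 359 CPM in APC-KI, 193 to 257 CPM in APC-WT), and B and plasma cell markers in 6 of 8 (5786 to 14356 CPM in APC-KI, 842 to 1308 CPM in APC-WT). The part of any of these cells in the member levels was not tested.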

How the data were processed

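The data are RNA sequencing counts of 6 colon tumours. Per the labels' protocols, tumours were pinched off the muscle layer and libraries were made with a stranded mRNA kit. Per the submitters' processing notes, the tools were STAR, DESeq2 1.37.6, cutadapt 2.5 and Trim Galore 0.6.4, with the builds GRCm38 and mm10. The annotation release, the counter and how it treated strand are not given in the sources used here. Raw counts per Ensembl gene were deposited, per the file headers.

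Groups came from the sample titles. Identifiers were matched to symbols in GENCODE M21 (52093 of 53700 rows; 35 identifier versions were equal, so M21 served for names, exon lengths and gene order). The 8 members were all matched. Members and lists were chosen with earlier results of these data known. Low genes were removed with filterByExpr, and the rest, after TMM scaling, were tested with edgeR 4.0.16 (robust glmQLFit, glmQLFTest; R 4.3.3), group being the sole term, with Benjamini-Hochberg adjustment over 19127 genes. Log2 profiles used a prior count of 2. The steps were tested on simulated counts. Lists are described by counts and medians, without a set test. The genes named were all members, Tcf7l2, antisense transcripts at DLX loci, up to 4 genes of smallest p per list, neighbours past the threshold and the 5 nearest profiles of Msx1 and Dlx3. Further list genes and markers were named after their values were seen, to describe the groups. Binomial intervals are exact (95%), cover counting error only and use 3 counts as the floor for 0. The ratios of summed counts pool the 3 libraries of a group, so their intervals leave out the spread between tumours and are no test. No libraries were merged for the fits: a chi-square over genes within each group gave 39.5 to 113.5 per gene, far above sampling noise. The labels do not say how the samples of a group are related beyond coming from 3 mice per group. The p-values set the group difference against the spread between these samples only.

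Alternatives were DESeq2 1.42.0, limma-voom (limma 3.58.1), RLE and upper-quartile factors, library totals, no filter, a stricter filter (CPM above 1 in 3 samples or more), a replicate block, each library left out, and the 4 libraries that lack Y-linked reads. Where a group was left with 1 library, it was assumed to vary like the other group.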

Additional observations from a re-analysis of the deposited data

How the results depend on the processing

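The log2 changes of Msx1, Msx2, Dlx3 and Dlx4 stayed below 0 under each alternative that could be fitted. Msx1 ran between −4.41 and −4.08, Msx2 between −3.61 and −3.05, Dlx3 between −3.45 and −2.28 and Dlx4 between −2.36 and −1.41, the upper value for Dlx3 coming from libraries that lack Y-linked reads. With each library left out the ranges were −4.41 to −4.08, −3.59 to −3.07, −3.45 to −2.68 and −2.36 to −1.41. The filter of CPM above 1 removed Msx2 and Msx3. No log2 change that was recomputed changed sign, but the list and marker genes named beyond the rule, such as Bmp2, Grem1, Id1, Axin2, Notum and Krt4, were not recomputed under the alternatives. The median log2 change of the downstream genes, 0.18 in the full fit, was −0.04 among libraries that lack Y-linked reads and −0.29 with no filter. Tcf7l2 passed throughout, between −3.07 and −2.75 with each library left out. With library totals the median log2 change of all genes moved by −0.116, and calls split into 1978 higher and 2844 lower, against 2388 higher and 1459 lower with TMM factors, and 11 neighbours passed.

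Calls over all genes were 1159 to 3927 with each library left out, 330 among libraries that lack Y-linked reads and 1660 with the replicate block. In the same leave-one-out fits 3 to 12 genes of the BMP and SMAD list passed, 10 to 18 of the TCF/LEF and Wnt list, 1 to 3 of the NK-like homeobox list, 1 to 3 of the partners, 1 to 4 of the downstream genes and 3 to 9 neighbours. Among libraries that lack Y-linked reads, with 1 APC-WT library, these were 1, 4, 1, 1, 0 and 1 in the same order. The 0 is from edgeR, which had 5 downstream genes at an unadjusted p under 0.05. With the replicate block 4 BMP and SMAD genes, 2 NK-like homeobox genes and 1 partner passed. The replicate numbers did not pair the libraries (correlations of deviations 0.035, −0.068 and −0.182), so this block result carries no pairing. DESeq2 called 7 NK-like homeobox and 7 downstream genes. The cause of these moves was not tested. Depth limits Dlx1, Dlx2, Dlx5 and Dlx6, at no more than 6 counts in any library.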
